A study of Mus musculus with 8 samples.

Results

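The MEX3 genes, Mex3a, Mex3b, Mex3c and Mex3d, form a family of 4 genes, and 3 of them are among the 11364 genes listed for nascent RNA of Klf1-deficient erythroid cells. They were chosen by name with earlier results of these data known, and the genomic sites described here were selected on their closest transcription start site (TSS). Of 5551 sites listed for KLF1-ER or KLF1-E339K-ER, 4 had a MEX3 gene as the closest TSS, 2 at Mex3a and 2 at Mex3d. No site had Mex3b or Mex3c as the closest TSS. The table lists called peaks, and the concentrations come from the same ChIP libraries, so the values at these sites are a description and were not tested.

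The cells were K1, an immortalized line from Klf1-/- mouse fetal liver, and K1-E339K-ER, the same line infected with an MSCV retrovirus that carries the mutant KLF1-E339K fused to the hormone-binding part of the estrogen receptor. Cells were treated with 200 nM 4-hydroxytamoxifen (4-OHT), which moves the fusion protein into the nucleus. Nascent RNA was labeled with 4-thiouridine (4sU), by the labels at 500 µM for 30 min, in 3 K1 libraries, of which 2 are labelled 4-OHT and 1 ethanol, and in 3 K1-E339K-ER libraries treated with 4-OHT, 1 from each of 3 clones. Binding was read by ChIP-seq with an antibody to the estrogen receptor in 1 ChIP library and 1 input library, both from 1 K1-E339K-ER clone after 3 h of induction and made from 3 pooled replicates. Wild type KLF1-ER libraries, from K1-ER cells of the authors' earlier work, enter the tables but are not samples of this series. The authors give 1 level per gene over all libraries and 1 concentration per site for each protein. The number of libraries behind either concentration is not stated, and this series holds 1 ChIP library of the mutant. No spread between replicates can therefore be given for any value, and the depth of the libraries is unknown.

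MEX3 proteins are the vertebrate relatives of worm MEX-3, a translational regulator of the early embryo. They bind RNA through KH domains and carry a RING domain, the fold by which many ubiquitin ligases act on their substrates. KLF1 is a zinc finger activator of erythroid genes, and its binding motif is G-rich with a pyrimidine at the fifth base.

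Sequence at the first exon of Mex3a is shown first, because Mex3a carried the highest mutant concentrations of the family. The base letters searched were the pyrimidine motif, NGGGCGGGG, NGGGCGTGG, NGGGTGGGG or NGGGTGTGG, and the purine motif, NGGGAGGGG, NGGGAGTGG, NGGGGGGGG or NGGGGGTGG, on both strands. The motifs differ at position 5 of 9, so matches of both can overlap only when shifted or on opposite strands. All coordinates are on mm9, each sequence runs 5′ to 3′ along the strand of the gene named, and capitals mark bases in a match to either motif. The upstream site of Mex3a lay at chr3:88335175-88335537, outside the annotated gene. The first-exon site lay at chr3:88336286-88336836, across the annotated start, the 454 bp of coding sequence in the first exon and the beginning of the intron, and 300 bases from the coding part are given (chr3:88336412-88336711, plus strand). Between these sites lay the 250 bases before the RefSeq start of Mex3a (chr3:88335618-88335867, plus strand).
Mex3a first-exon site: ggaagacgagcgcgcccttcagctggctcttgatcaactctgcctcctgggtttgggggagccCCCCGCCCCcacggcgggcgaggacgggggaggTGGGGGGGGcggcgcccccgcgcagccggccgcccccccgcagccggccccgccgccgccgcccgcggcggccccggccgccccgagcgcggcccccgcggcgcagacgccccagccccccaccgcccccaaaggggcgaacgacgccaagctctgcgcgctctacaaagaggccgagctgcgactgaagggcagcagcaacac
Mex3a before the RefSeq start: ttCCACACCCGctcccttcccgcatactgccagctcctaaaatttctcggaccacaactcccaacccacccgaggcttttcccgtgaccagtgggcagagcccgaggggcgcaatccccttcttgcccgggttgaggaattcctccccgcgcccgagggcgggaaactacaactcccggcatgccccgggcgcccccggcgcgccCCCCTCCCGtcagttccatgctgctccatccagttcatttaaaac

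The upstream site of Mex3a held 2 purine matches and no pyrimidine match within 50 bp of its midpoint. The first-exon site held 1 purine match, TGGGGGGGG, centred 49 bp before the midpoint, so that its outer bases fell beyond the 50 bp window. Its 1 pyrimidine match, GGGGCGGGG on the minus strand, was centred 82 bp before the midpoint. The bases before the RefSeq start held 1 match of each motif. These matches are letters in a window and were not tested as binding sites.

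The Mex3d sites are shown for comparison, on the minus strand as the gene is read. The upstream site lay at chr10:79850502-79850820, outside the annotated gene (300 bases, chr10:79850512-79850811). The last-exon site lay at chr10:79843758-79844075, in the final exon, with 103 bp in the coding sequence and 215 bp in the 3′ UTR of 3 of the 4 annotated transcripts, and its coding part is given (chr10:79843973-79844075).
Mex3d upstream site: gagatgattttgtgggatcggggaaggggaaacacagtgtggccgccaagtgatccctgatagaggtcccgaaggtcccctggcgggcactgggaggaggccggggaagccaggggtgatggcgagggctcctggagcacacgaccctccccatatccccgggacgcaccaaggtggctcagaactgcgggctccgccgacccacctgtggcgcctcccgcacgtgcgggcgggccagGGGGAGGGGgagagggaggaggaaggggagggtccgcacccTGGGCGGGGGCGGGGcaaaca
Mex3d last-exon site: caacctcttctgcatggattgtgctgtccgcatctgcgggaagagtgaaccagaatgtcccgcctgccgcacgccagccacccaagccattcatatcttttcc

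In the Mex3d upstream site, the purine match GGGGAGGGG lay 92 bp from the midpoint on the side of the gene. A pair of overlapping pyrimidine matches, TGGGCGGGG and GGGGCGGGG, lay farther out on the same side. The last-exon site held no match of either motif over its whole 318 bp. So 1 of the 4 MEX3 sites, the upstream site of Mex3a, had a purine match within 50 bp of the midpoint, and none had a pyrimidine match there. Over all 5551 sites, 35.5% had a purine match within 50 bp and 35.3% a pyrimidine match. The share with a purine match was 46.3% of the 3068 sites where the mutant concentration was at least 2 higher on the log2 scale, and 15.1% of the 1295 sites where the wild type concentration was at least 2 higher. The reverse order held for the pyrimidine motif, with 21.8% and 62.8%. The counts at the MEX3 sites depended on the window. Within 100 bp, 3 of the 4 had a purine match and 1 a pyrimidine match, beside 48.2% and 47.2% of all sites.

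Concentration is the log2 of the mean normalized read count at a site, as the authors computed it for each protein. At the Mex3a first-exon site the KLF1-E339K-ER concentration was 7.06, and 96.8% of all sites had a lower one. The KLF1-ER concentration at this site was 0.50, a value shared by 259 sites, and 25.7% of sites had a lower one. At the Mex3a upstream site the mutant concentration was 6.61, above 92.6% of sites, beside a wild type concentration of 2.50. Both Mex3a sites therefore ranked high for the mutant protein, and the site inside the gene had the lower wild type value.

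At the Mex3d upstream site the concentrations were 3.72 for wild type and 4.82 for mutant, and 48.0% of sites had a lower mutant value. At the Mex3d last-exon site the mutant concentration was 4.28, above 31.3% of sites, and the wild type concentration was -0.09, the lowest value in the table. The Mex3d sites were thus in the middle and lower ranges of the mutant protein, and only its upstream site, of the 4 MEX3 sites, had a wild type concentration above the median of all sites (2.82).

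The mutant concentration exceeded the wild type one by 6.56 on the log2 scale at the Mex3a first-exon site, by 4.11 at the Mex3a upstream site, by 4.37 at the Mex3d last-exon site and by 1.10 at the Mex3d upstream site. A difference of at least 2 toward the mutant was found at 3 of the 4 MEX3 sites and at 55.3% of all sites. When only sites with a higher concentration of at least 5 were kept, both Mex3d sites dropped out. Both Mex3a sites stayed through their mutant values alone, since their wild type values were 0.50 and 2.50. A site with such a wild type value that passes this filter must differ by at least 2. The 2 of 2 MEX3 sites with the difference were therefore fixed by the filter, and the share over all 3632 sites kept was 52.9%. A difference of at least 2 toward wild type was found at 0 of the 4 and at 23.3% of all sites. Low wild type values moved in steps of about 0.47 normalized reads. The wild type value was 1.41 normalized reads at the Mex3a first-exon site, 1 step above the lowest, and 5.66 at the upstream site, 10 steps above it. The Mex3d last-exon site shared the lowest wild type value with 1424 sites in all, or 25.7% of the table, so its difference is not an estimate of a ratio, and that of the Mex3a first-exon site rests on a value 1 step higher. The plot of wild type against mutant concentrations shows the same order.

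**Figure D1:**
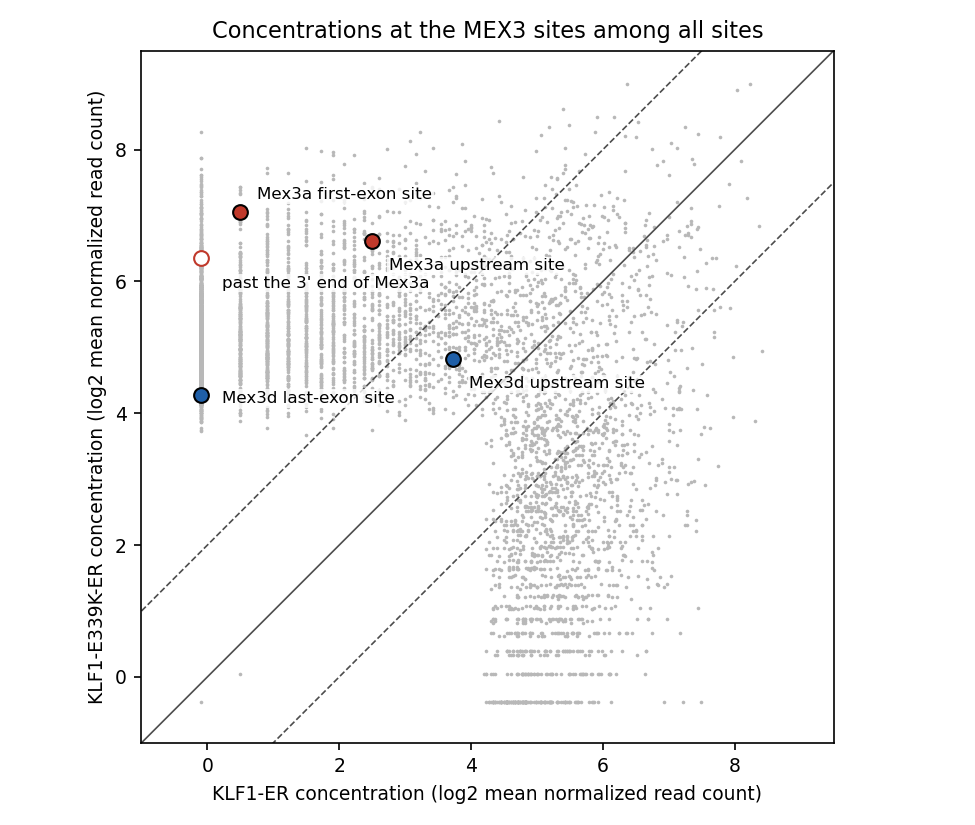
KLF1-ER (x axis) against KLF1-E339K-ER (y axis) concentration, both log2 mean normalized read counts, for all 5551 sites (grey), with Mex3a sites in red and Mex3d sites in blue. The open circle is the site past the 3′ end of Mex3a, the solid line marks equal values and the dashed lines a difference of 2; 3 of the 4 MEX3 sites lie above the upper dashed line.

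The midpoints of the Mex3a sites lay 961 bp upstream and 244 bp downstream of the annotated start, 1205 bp apart. The RefSeq promoter window of Mex3a matched mm9 at 1 place, with its start 449 bp upstream of the GENCODE start. Counted from the RefSeq start, the sites lay 512 bp upstream and 693 bp downstream. A pair of sites within 1 kb of the same TSS was found for 267 genes, and for 109 of them, as for Mex3a, the mutant concentration was at least 2 higher at 2 or more of these sites. The Mex3d midpoints lay 257 bp upstream and 6488 bp downstream of the annotated start, so that they stood near the opposite ends of a gene that spans 7305 bp.

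A further site lay just past the 3′ end of Mex3a, at chr3:88345646-88345969, and began 328 bp beyond the annotated end of the gene. Its closest TSS in the table was that of Mir1905, a miRNA gene annotated inside Mex3a on the opposite strand (chr3:88340223-88340304), so the rule for MEX3 sites did not take it. Its last 19 bp overlapped the end of Rab25, which is read toward Mex3a. The concentrations there were -0.09 for wild type and 6.35 for mutant, above 89.4% of sites. The middle 200 bases (chr3:88345707-88345906, plus strand) are shown because their run of G held 5 overlapping purine matches within 50 bp of the midpoint.
Site past the 3′ end of Mex3a: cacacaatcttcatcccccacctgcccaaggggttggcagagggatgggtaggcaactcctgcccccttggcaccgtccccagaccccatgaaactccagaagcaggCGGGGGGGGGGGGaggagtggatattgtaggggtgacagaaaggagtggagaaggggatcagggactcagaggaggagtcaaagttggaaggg
No pyrimidine match lay in this site. The site was picked out after its values were seen, and since its wild type value is the lowest of the table, its difference is not an estimate of a ratio.

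**Figure D2:**
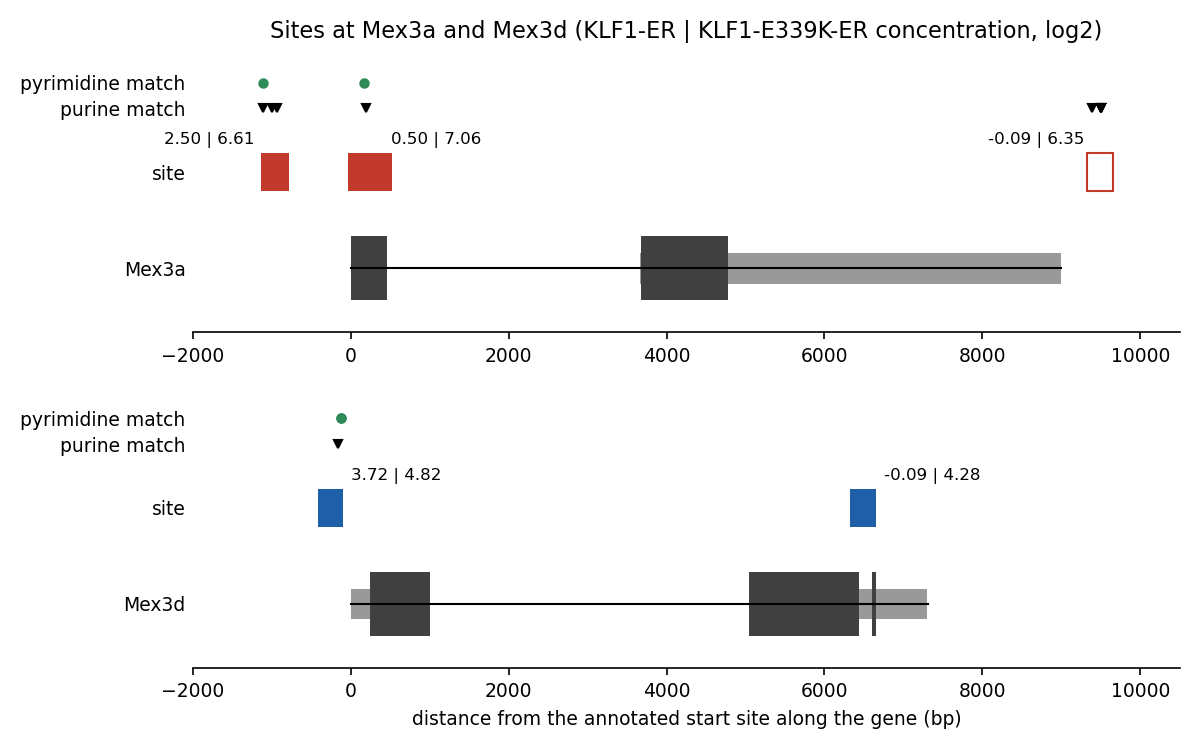
Distance along the gene from the annotated start (x axis, bp) for Mex3a and Mex3d, with all annotated transcripts laid over each other (dark boxes coding, grey boxes other exon sequence), sites as colored boxes with their wild type and mutant concentrations, and motif matches above them. The midpoints of the Mex3a sites lie on either side of the start and the open box lies past the end of the gene, whereas the Mex3d sites lie at either end.

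The base composition of the 4 sites was also measured over 300 bp. The Mex3a first-exon site had a GC content of 78.7% with 40 CpG dinucleotides, and 99.8% of sites had a lower GC content. The Mex3d upstream site had 69.8% and the Mex3a upstream site 67.4%. The Mex3d last-exon site, at 63.5%, was nearest to the median of all sites, 59.8%.

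Sites most like each MEX3 site in both concentrations were found by Euclidean distance. The 5 closest to the Mex3a upstream site had Esyt1, Erf, Igf2bp3, Suz12 and Bcorl1 as the closest TSS, at distances from 0.13 to 0.16. Igf2bp3 is itself a KH-domain RNA-binding protein, and Suz12 is a Polycomb subunit. For the Mex3a first-exon site they were Cdk5rap3, Gtf2i, Btg2, Zfp358 and Ptch1, at 0.03 to 0.16, where Kdm3b tied with Ptch1. For the Mex3d upstream site they were Ggnbp1, Gm10818, Gpt, Kdm6b and Lgals8, at 0.05 to 0.10. The Mex3d last-exon site shared both values with 4 other sites, at Sall2, Ccng2, Galnt9 and Klhdc10, and 4 more sites tied for the next place, at a distance of 0.01.

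The wider neighborhoods of Mex3a and Mex3d were dense in sites. Within 100 kb of the Mex3a start lay 14 sites, 9 with the mutant and 3 with the wild type concentration at least 2 higher. Within 100 kb of the Mex3d start lay 16 sites, 14 with the mutant at least 2 higher and 0 with wild type. Over all sites these shares were 55.3% for the mutant and 23.3% for wild type. The counts include the sites of Mex3a and Mex3d themselves. In both neighborhoods several sites had the lowest wild type value, -0.09, and around Mex3d several more had 0.50, 1 step above it. Differences at the lowest value are not estimates of a ratio. Of 9616 listed genes with a position, the median had 1 site within 100 kb, and 99.2% had fewer than Mex3a and 99.6% fewer than Mex3d. The Mex3a neighbors with the highest mutant concentration were Arhgef2 (7.62) and Lmna (7.06 and 6.95), where Lmna encodes the A-type lamins. The wild type protein had its highest values on the Lmna side, 6.60 and 6.54 at Lmna and 6.57 at Sema4a. Around Mex3d, 7 sites belonged to Tcf3, which encodes the E2A factors, with mutant concentrations from 4.79 to 5.84, and 4 to Onecut3, with 5.43 to 7.57. The mutant values of the Mex3d sites, 4.28 and 4.82, were the lowest and the third lowest of the 16.

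**Figure D3:**
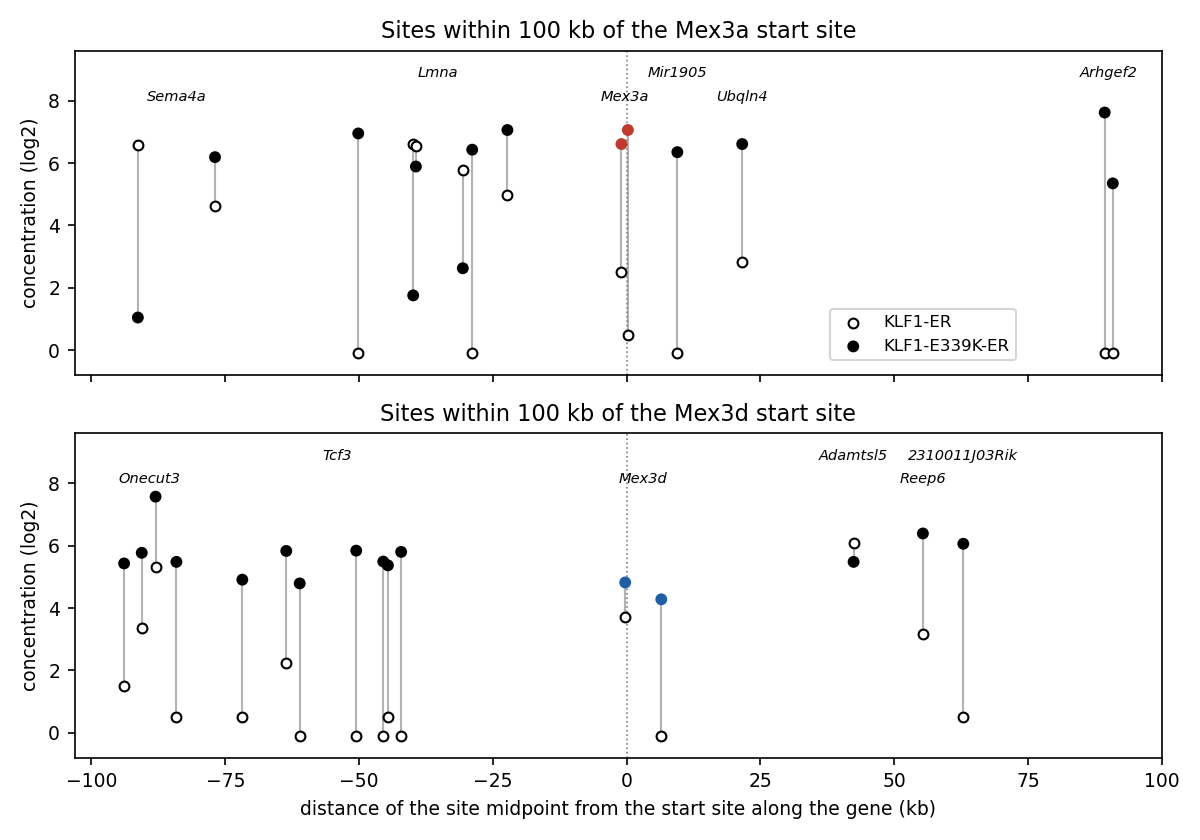
Concentrations (y axis, log2 mean normalized read count) of KLF1-ER (open) and KLF1-E339K-ER (filled) at every site within 100 kb of the Mex3a and Mex3d starts, against distance along the gene (x axis, kb), with closest TSS names above. The gene's own sites are colored; 14 sites are drawn for Mex3a and 16 for Mex3d.

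Neither Mex3b nor Mex3c had a site within 100 kb. The nearest site to the Mex3b start (mm9 chr7:90015843-90020073, plus strand) was 1017078 bp away and had Mesdc1 as the closest TSS, with concentrations of 4.04 for wild type and 4.98 for mutant. Of the listed genes with a position, 37.6% likewise had no site within 100 kb. The RefSeq window of Mex3b matched mm9 at 1 place with the same start as GENCODE, and its 250 bases before the start (chr7:90015593-90015842, plus strand) are shown because they held 2 purine matches, AGGGAGTGG and GGGGAGGGG, and yet no site was listed.
Mex3b before the RefSeq start: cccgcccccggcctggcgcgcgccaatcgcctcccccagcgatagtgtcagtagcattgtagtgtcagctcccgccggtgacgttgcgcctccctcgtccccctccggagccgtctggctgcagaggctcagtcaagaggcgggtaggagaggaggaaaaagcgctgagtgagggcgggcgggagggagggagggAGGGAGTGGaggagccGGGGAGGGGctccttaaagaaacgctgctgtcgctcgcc
Over the 300-base windows of 32851 promoters, 22.6% held a purine and 29.7% a pyrimidine match. Promoter entries matched 2 of the 4 family members, Mex3a and Mex3b.

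The level of nascent RNA was read from the mean log2 CPM (read counts scaled to the size of the library) over all libraries, which the authors give as 1 value per gene. To compare genes, it was divided by the listed gene length, which is close to the genomic span, and is given as log2 CPM per kilobase. Mex3a (Entrez 72640, 9000 bp) had a mean of 8.10 log2 CPM, or 4.93 per kilobase, and 96.7% of genes were lower per kilobase. Mex3d (Entrez 237400, 7297 bp) had 6.51 log2 CPM, or 3.64 per kilobase, above 90.1% of genes.

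Mex3c (Entrez 240396, 19874 bp, annotated at chr18:73732698-73752229 on mm9) had 5.15 log2 CPM, or 0.83 per kilobase, above 50.2% of genes. Its level thus lay at the median of all genes, 0.82 per kilobase. The nearest site was 130854 bp from its start, at the start of the next gene, Smad4, with concentrations of 0.91 for wild type and 4.43 for mutant. Mex3b was not listed in the gene tables, so no level can be given. Per kilobase, the order was Mex3a, Mex3d and Mex3c, with steps of 1.29 and 2.81 on the log2 scale. Without division by length the order was the same, but the steps were 1.59 and 1.36, and 73.0% of genes were lower than Mex3d. Whether neighbors in this order differ beyond the spread between libraries could not be tested, because the mean pools all libraries of the authors' fit. The KLF1-ER and KLF1-E339K-ER gene tables give the same mean, so K1-ER libraries are taken to be in it, but its libraries are not named. The same mean gives no level in any 1 condition.

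The genes beside each MEX3 gene were compared on the same scale. Lmna, on the upstream side of Mex3a, had 4.81 log2 CPM per kilobase, close to Mex3a, whereas Rab25, only 632 bp past its 3′ end, had -1.05. Mbd3, upstream of Mex3d and a subunit of the NuRD complex, had 3.66, against 3.64 for Mex3d, and Plk5 on its other side had 1.18. Smad4, past Mex3c, had -0.48, and Dcc on the other side was not listed. Neither gene beside Mex3b, 1700010L04Rik and A530021J07Rik, was listed.

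Other RNA-binding proteins with KH domains or RING domains give a scale for the family. Of 29 KH-domain genes, 23 were listed, with a median of 2.12 log2 CPM per kilobase, beside 0.82 for all genes. The highest were Hnrnpk (4.52), Pcbp4 (4.49) and Khsrp (4.21), and the lowest Igf2bp2 (-1.99), Qk (-0.52) and Ankhd1 (0.11). Of 15 RNA-binding RING genes, 12 were listed, with a median of 1.58. The highest were Rbbp6 (3.21), Trim25 (3.00) and Rnf113a1 (2.98), and the lowest Mkrn1 (0.66), Rc3h2 (0.88) and Cnot4 (1.07). Per kilobase, Mex3a was above the highest listed gene of either list, Mex3d above the highest RING gene and below 5 KH-domain genes, and Mex3c below both medians. The order depends on the scale. By mean log2 CPM without division by length, a comparison chosen after seeing the data, 5 KH-domain genes and 1 RING gene were above Mex3a, and 16 and 6 were above Mex3d.

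**Figure D4:**
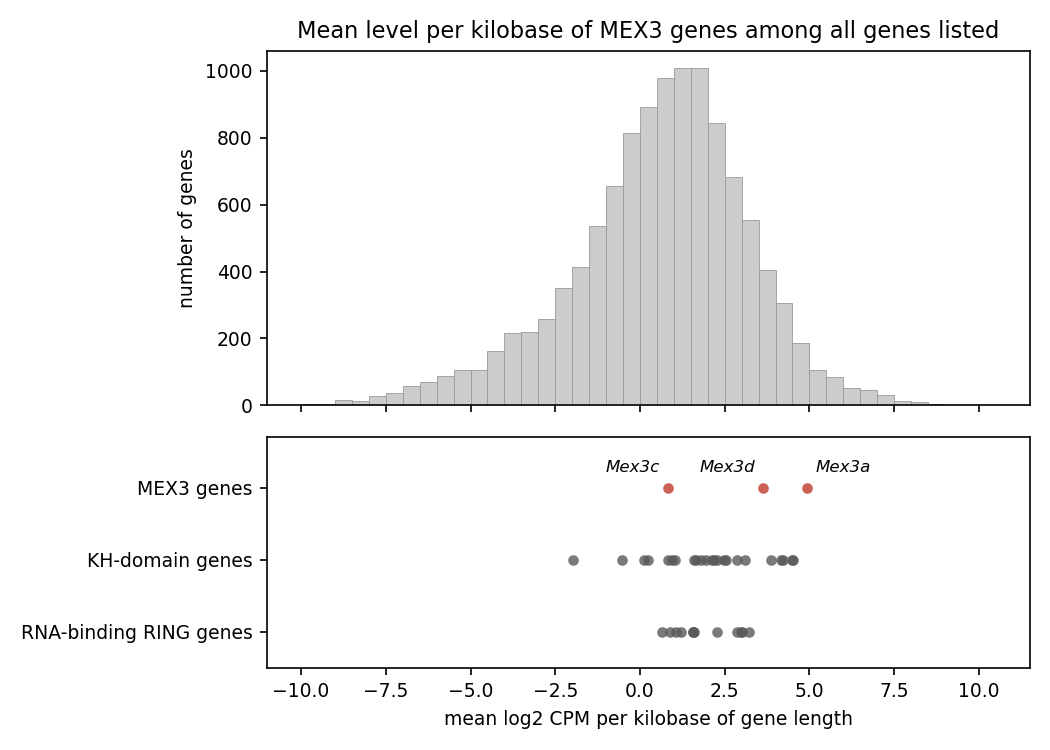
Number of genes (y axis, upper panel) by mean log2 CPM per kilobase of gene length (x axis) for the 11364 genes listed, and below it 1 point per listed MEX3, KH-domain and RNA-binding RING gene. Per kilobase, Mex3a at 4.93 lies right of all KH-domain and RING genes, and Mex3c at 0.83 lies near the middle of all genes.

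A site within 10 kb of the closest TSS was listed for 2 of the 4 MEX3 genes, 7 of the 29 KH-domain genes and 2 of the 15 RING genes. Over all genes in the gene tables the share was 20.2%. The bases differ, since the family and the lists include 1 MEX3, 6 KH-domain and 3 RING genes not in the gene tables. Igf2bp3 and Igf2bp1, which encode IGF2 mRNA-binding proteins, had 5 and 4 sites. The highest mutant concentration was 6.63 at Igf2bp3 and 6.20 at Igf2bp1, with wild type values from 0.91 to 3.37. Pcbp2 had 1 site with 0.50 for wild type and 6.43 for mutant, so its wild type value equalled that of the Mex3a first-exon site. Fxr2 had 2 sites at the lowest wild type value, with mutant values of 4.54 and 4.43, close to the Mex3d last-exon site, and Rbbp6 had 1 such site, with 4.87. Hdlbp had 2.72 for wild type and 5.05 for mutant. Khdrbs1 had 2 sites, 1 with almost equal values (5.04 and 4.90) and 1 at the lowest wild type value with 4.42 for mutant. Rc3h1, the RING protein Roquin that controls mRNA decay, went the other way, with 7.54 for wild type and 3.79 for mutant at the nearer of 2 sites. Fmr1 also had the higher value for wild type, 4.53 against 2.30.

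The erythroid label was checked against marker genes. All 13 erythroid markers were listed, their summed level was 12.28 log2 CPM, and the highest without division by length was Zfpm1 at 10.80 log2 CPM. Gata1, the central erythroid factor, had 9.79 log2 CPM, and per kilobase it was above Zfpm1, with 6.68 against 5.01. Hba-a1 (3.79), Hbb-b1 (3.87) and Lyl1 (4.99) were below the median of all genes, 5.27 log2 CPM, but per kilobase, with 3.09, 3.39 and 3.28, they were above the median of 0.82. Kit (6.95) and Alas2 (5.29) went the other way, with 0.6 and 0.75 per kilobase, below that median. None of the 4 lymphoid or 3 hepatocyte markers was listed. Of the megakaryocyte markers 3 were listed, with a sum of 6.36 led by Itga2b. Of 6 macrophage and granulocyte markers 5 were listed, with a sum of 4.37 led by Emr1. Of 5 fibroblast and endothelial markers only Col1a1 was listed, at -1.69. Klf1 was listed at 6.84 log2 CPM, a mean that includes the libraries with the transgene. In these bulk libraries fewer cells of a type and less RNA per cell cannot be told apart.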

How the data were processed

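Ion Proton reads were aligned to mm9 by the authors, RNA with TopHat2 (2.0.10 in the submitters' processing notes) and TMAP, ChIP with TMAP. RNA reads of low mapping quality and duplicate or multi-mapped ChIP reads were taken out. The authors deposited log2 values: limma-voom's mean log2 CPM per gene, and DiffBind's log2 concentration per site for each protein. Versions of limma and DiffBind, the counting tool and the gene annotation are not given in the sources used here. The log2 fold change, moderated t, p-value and adjusted p-value of the 2 gene tables, and the fold, p-value and FDR of the site table, are the authors' comparisons and were not used. The concentration over both proteins together was not used either.

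The gene tables were joined on Entrez identifier, length and mean expression. Differences between concentrations were computed from the 2 levels. The percentile of a value is the percent of all genes or sites with a lower one. Positions came from GENCODE M1, sequences from the NCBIM37 genome (mm9) and RefSeq promoters (GRCm38.p6), the latter placed on mm9 by exact match. Motifs were counted where the whole match lay within 50 bp of the site midpoint. Distances were read from the annotation with downstream positive, since the distance in the site table follows the genome axis. Python 3.11.15, pandas 2.3.3, numpy 2.4.6 and scipy 1.17.1 were used, and motif search and counts were tested on simulated data.

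No statistical test was run: no value is given per replicate, the depth is unknown, and no group has a value of its own for nascent RNA. The members and lists were chosen with earlier results of these data known. The genes named are the family, its neighbors, the 5 sites closest in concentration to each of its sites, and, of the KH-domain and RING lists, the 3 highest and 3 lowest per kilobase and those with a site within 10 kb. Klf1, Gata1 and the highest marker of each list without division by length are also named. So are the erythroid markers below the median of all genes on either scale. The windows of 10 kb and 100 kb around the starts were planned, but the neighborhood sites given by name, and the site past the 3′ end of Mex3a, were picked out after their values were seen. A comparison of the 4 proteins was planned but not run here, and the sequence of 1 site is not reported here. Alternatives were other minimum differences, filters on level, motif windows, site assignment and scaling.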

Additional observations from a re-analysis of the deposited data

How the results depend on the processing

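No paired analysis was possible because no result comes from a test. Sites with the mutant concentration at least 2 higher fell from 3068 to 1922 when only sites with a higher concentration of at least 5 were kept, which uses fewer sites. The 4 sites assigned to MEX3 genes became 30 with all sites within 100 kb of a MEX3 start, by construction. Searching the whole site raised sites with a purine match from 1973 to 3241 and with a pyrimidine match from 1958 to 3251. Of the 4 MEX3 sites, 1 had a purine match within 50 bp, 0 within 25 bp, 3 within 100 bp and 3 over the whole site, beside 35.5%, 25%, 48.2% and 58.4% of all sites. The number with a pyrimidine match went from 0 within 50 bp to 1 within 100 bp and 3 over the whole site, beside 35.3%, 47.2% and 58.6% of all sites. Without division by length, the share of genes below Mex3a was 94.4%, below Mex3d 73.0% and below Mex3c 47.8%. Among genes with a mean log2 CPM of at least 1, 89.6% were below Mex3d and 46.1% below Mex3c. The mutant concentration was at least 2 higher at 3 of 4 MEX3 sites. When only sites with a higher concentration of at least 5 were used, 2 MEX3 sites were kept, both through the mutant value. With their low wild type values, a difference of at least 2 at both followed from the filter. Over all 3632 sites kept the share was 52.9%. With a minimum difference of 1, the mutant concentration was higher at 4 of 4 MEX3 sites, beside 3414 of all 5551 sites. In a comparison chosen after seeing the data, division by length was left out and the KH-domain genes above Mex3a rose from 0 to 5 and the RING genes from 0 to 1, while those above Mex3d rose from 5 to 16 and from 0 to 6. Other settings moved counts by less than 1.5 times. The tables hold no counts per library, so what depth limits could not be measured.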
